A study of Homo sapiens with 14 samples.

Results

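Transcript levels of 10 genes of the mesenchymal programme were followed as human pluripotent stem cells became β-like cells. They were the transcription factor genes TWIST1, TWIST2, SNAI1, SNAI2, ZEB1, ZEB2, PRRX1 and TCF21, and the receptor genes PDGFRA and PDGFRB. The genes were taken by symbol from 60624 listed Ensembl gene identifiers, and all 10 were found. The values came from bulk RNA sequencing of MEL1 cells, human embryonic stem cells that carry a GFP reporter at the insulin gene. The 14 libraries fell into 9 groups by their titles and into 3 batches by their descriptions. Batch 1 held 1 library each of undifferentiated cells (hPSC), definitive endoderm (DE), pancreatic progenitors (PP2) and β-like cells made without an expansion step (SC-β). Batch 2 held 2 libraries each of expandable pancreatic progenitors at passage 9 (ePP-P9) and passage 21 (ePP-P21), kept on feeder cells in a medium with the growth factors EGF and bFGF, the TGFβ receptor inhibitor 616452 and I-BET151 (called ePP together here, 4 libraries), and of β-like cells made from them (ePP-β). Batch 3 held 2 libraries each of pancreatic progenitors that had been passaged without I-BET151 and were then given the solvent (DMSO) or I-BET151 at 1 μM for 7 days. I-BET151 blocks the BET bromodomain proteins, which read acetylated histones. All groups shared the single MEL1 line. The sources used here do not state whether the 2 libraries of a group were separate cultures. Every p-value below therefore sets a difference against a spread between libraries that may be technical. Nor do the sources state whether reads of feeder cells were removed.

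Mesenchymal cells are the loosely attached, matrix-producing cells of connective tissue, and in the embryonic pancreas they surround the epithelial bud that gives rise to duct, acinar and endocrine cells. An epithelial cell can take on mesenchymal features in an epithelial-mesenchymal transition. SNAI1 (Snail), SNAI2 (Slug), ZEB1 and ZEB2 are zinc finger repressors that bind E-box sequences in the promoters of epithelial genes such as CDH1, which encodes E-cadherin. TWIST1, TWIST2 and TCF21 are basic helix-loop-helix factors that bind E-boxes as dimers with E proteins. PRRX1 is a paired-type homeobox factor of limb and craniofacial mesenchyme. PDGFRA and PDGFRB are receptor tyrosine kinases for the platelet-derived growth factors. PDGFRA is widely used to mark fibroblasts and PDGFRB to mark pericytes and other mural cells.

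Expression was measured in TPM, a share of each library corrected for transcript length, so levels can be compared between genes. Between 14982 and 17578 genes per library reached 1 TPM. Read depth is unknown because TPM keeps no record of it, and the precision of a group rests on its 2 libraries. Markers of each labelled stage were present. POU5F1 was at 3401 TPM in hPSC, SOX17 at 1140 TPM in DE, PDX1 at 251 TPM in PP2 and between 124 and 134 TPM among the ePPs, and INS at 20657 TPM in SC-β and at 10916 and 17374 TPM in ePP-β. NKX6-1, the other marker by which the authors define PP2, was at only 23.5 TPM there, against 176 to 213 TPM among the ePPs. Glucagon (GCG) was also abundant in the β-like cells, at 74281 TPM in SC-β and at 14107 and 13360 TPM in ePP-β. The 37 mitochondrial genes stood at exactly 0 throughout. An exact 0 may therefore be a failed estimate, and is written here as listed at 0.

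The 10 genes together were most abundant in the directly made pancreatic cells. Their summed level was 112 TPM in PP2 and 150 TPM in SC-β. It was 32.2 to 40.3 TPM in the 4 ePP libraries, 24.9 and 25.4 TPM in ePP-β, 51.3 and 54.3 TPM in DMSO, 48.0 and 75.8 TPM in I-BET151, 27.9 TPM in hPSC and 45.4 TPM in DE. In PP2 and in SC-β, 9 of the 10 genes reached 1 TPM, against 4 or 5 in each ePP library and 4 in each ePP-β library. PRRX1 was the gene under 1 TPM in both PP2 and SC-β, and the genes at or above 1 TPM in both ePP-β libraries were TWIST1, SNAI2, ZEB1 and PDGFRB. In bulk RNA, fewer cells of a type and less RNA per cell cannot be told apart, and this holds for every level below.

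**Figure D1:**
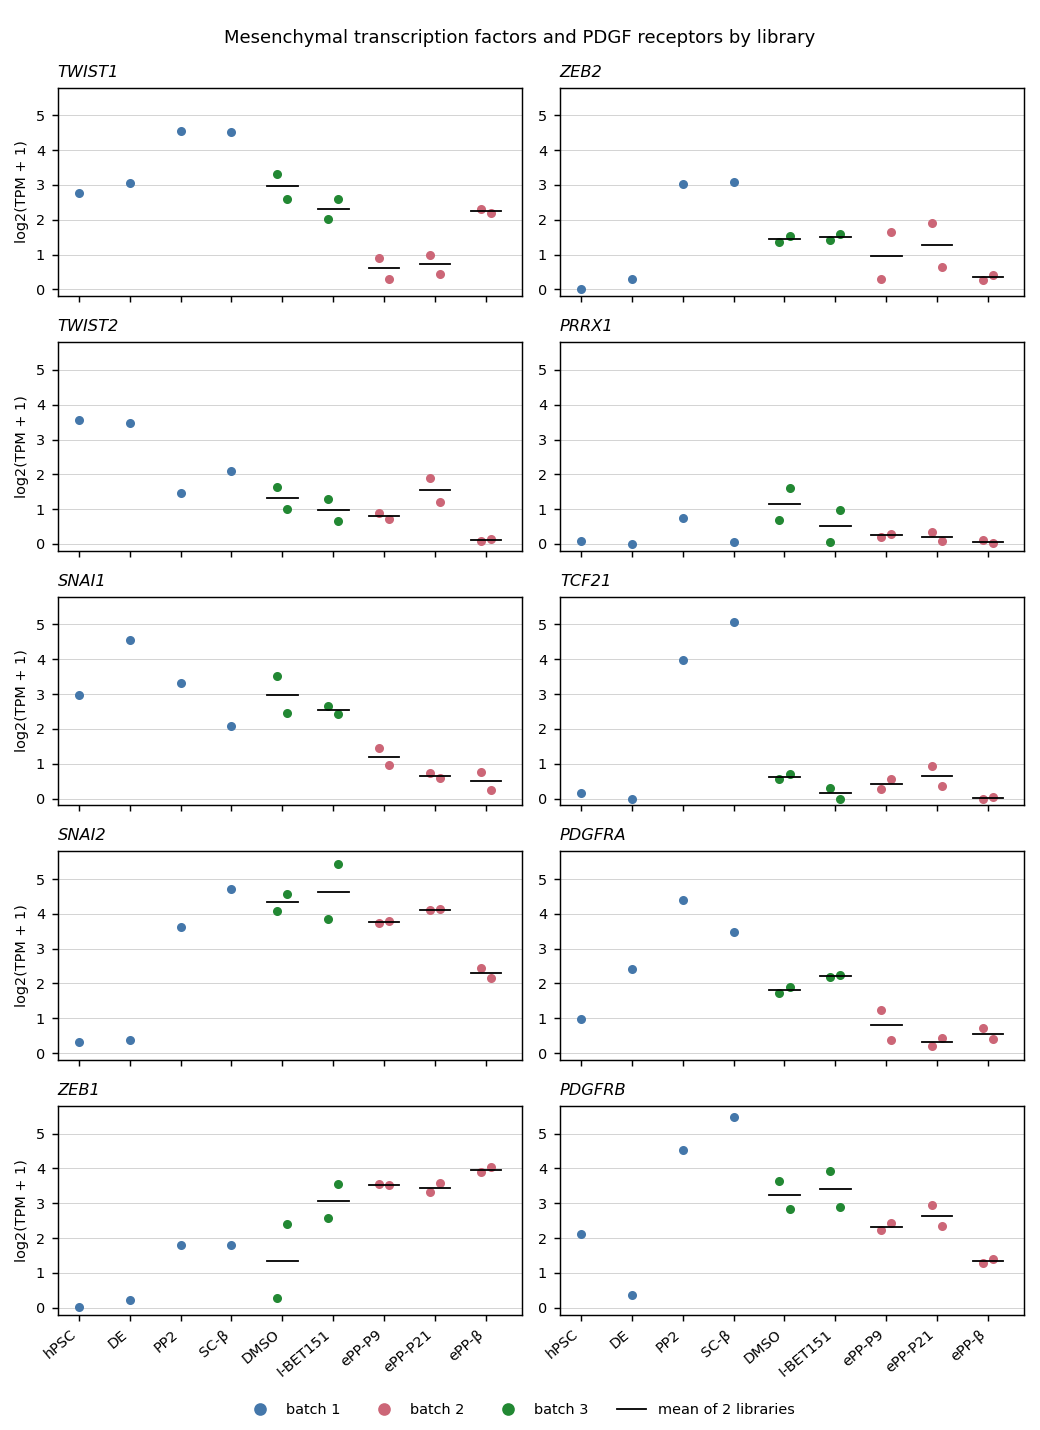
Level of each of the 10 genes in every library, as log2(TPM + 1) on the vertical axis, with the 9 groups on the horizontal axis. Each point is 1 library, coloured by batch, and a bar marks the mean of a group with 2 libraries. TCF21 reached 14.8 TPM in PP2 and 32.7 TPM in SC-β and was under 1 TPM in the other 12 libraries, whereas ZEB1 was highest in the 2 ePP-β libraries, at 13.9 and 15.3 TPM.

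Each expanded group was set against its directly made counterpart, PP2 for the ePPs and SC-β for ePP-β. These comparisons have no test, because PP2 and SC-β are single libraries and lay in batch 1 while the ePP and ePP-β libraries lay in batch 2, so batch and group cannot be told apart. A difference is given as that of the mean log2(TPM + 1), a scale on which changes of weakly expressed genes look smaller than they are, and "beyond 1" means larger than 1 on that scale. Of the 10 genes, 7 lay below PP2 in all 4 ePP libraries, 2 lay above it in all 4 (SNAI2 and ZEB1) and TWIST2 lay on both sides. By size, 6 of the 9 genes that reached 1 TPM in at least 1 library were lower beyond 1 and 1 was higher, where 25.4% of all 19170 genes compared were lower and 7.98% higher. With the requirement that the 4 ePP libraries not overlap PP2, the same background shares were 25.3% and 7.87%. TWIST1 and TCF21 stayed under 1 TPM in all 4 ePP libraries and entered only through PP2, where they were higher. Their differences describe their values and add no support beside these shares. The median difference, with TWIST1 and TCF21 included, was -2.05 over the 9 genes and -0.20 over all genes compared, and likewise adds no support. Centring each library on its median turned the latter into 0.17 and the split of all genes from 1530 higher and 4866 lower into 3223 higher and 3241 lower, while the 6 genes and the 1 gene stayed beyond 1 in the same direction.

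Against SC-β, 8 of the 10 genes were lower in both ePP-β libraries, ZEB1 was higher in both and PRRX1 overlapped. The 8 were all lower beyond 1 and ZEB1 was higher beyond 1, against backgrounds of 17.4% lower and 18.5% higher among 19533 genes, or 17.4% and 18.4% without overlap. TWIST2, SNAI1, ZEB2, TCF21 and PDGFRA stayed under 1 TPM in both ePP-β libraries and entered only through SC-β, where they were higher. Only TWIST1, SNAI2, PDGFRB and ZEB1 can therefore be read beside these shares. The median was 0.20 over all genes and -2.43 over the 9 genes compared, most of which entered only through SC-β. The latter describes their values and adds no support beside the shares. Under median centring the split of all genes moved from 3606 higher and 3397 lower to 2615 higher and 4112 lower, and the members' counts were unchanged.

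**Figure D2:**
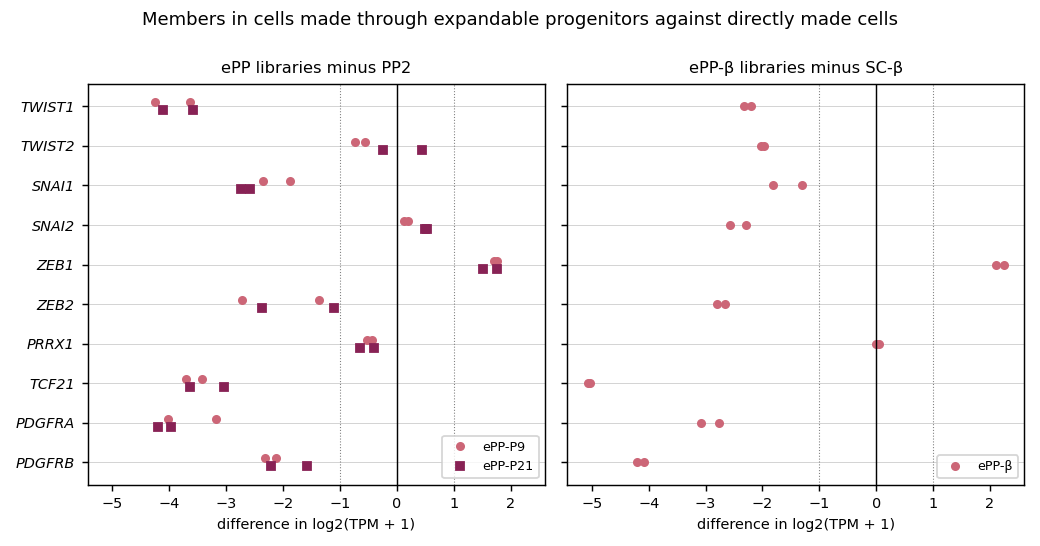
Difference in log2(TPM + 1) of each ePP library from the PP2 library (left) and of each ePP-β library from the SC-β library (right) for the 10 genes. Each symbol is 1 library, dotted lines mark a difference of 1 in either direction, and ZEB1 is the gene whose symbols lie to the right of 1 in both panels, with mean differences of 1.68 and 2.18.

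TWIST1 (chr7:19020991-19117636 in GRCh38, minus strand), which is needed for cranial mesenchyme and mesoderm, was at 22.5 TPM in PP2 and 21.9 TPM in SC-β. In the ePPs it was at 0.885 and 0.236 TPM at passage 9 and at 0.975 and 0.365 TPM at passage 21. The ePP-β values were 3.99 and 3.55 TPM. The ePP mean was 2.73% of the PP2 level (difference -3.89) and the ePP-β mean was 17.2% of the SC-β level (difference -2.27). The DMSO libraries, at 8.95 and 5.09 TPM, and the I-BET151 libraries, at 3.10 and 5.04 TPM, lay between PP2 and the ePPs, as did hPSC at 5.75 TPM and DE at 7.34 TPM. In the order of group means, DE, DMSO and hPSC overlapped as neighbours, as did I-BET151 with ePP-β and ePP-P21 with ePP-P9.

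TWIST2 (chr2:238848032-238910534, plus strand), a close relative of TWIST1 known from dermal and osteogenic cells, showed a different order. It was highest in hPSC at 10.7 TPM and in DE at 10.2 TPM. It was at 1.74 TPM in PP2, 3.28 TPM in SC-β, 0.866 and 0.652 TPM in the passage 9 ePPs, 2.73 and 1.32 TPM at passage 21, and 0.0561 and 0.0960 TPM in ePP-β. DMSO was at 2.12 and 0.998 TPM and I-BET151 at 1.46 and 0.583 TPM, so that DMSO overlapped both PP2 and I-BET151, whereas I-BET151 lay below PP2. The ePP difference from PP2 was small (-0.27) and its sign turned under median centring (0.10) and quantile normalization (0.23), whereas ePP-β lay below SC-β by -1.99.

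SNAI1 (chr20:49982980-49988886, plus strand), a repressor of E-cadherin that acts as mesendoderm forms, peaked in DE at 22.5 TPM, up from 6.78 TPM in hPSC. Mesendoderm markers were high in the same DE library, with EOMES at 334 TPM and MIXL1 at 356 TPM. SNAI1 was at 8.92 TPM in PP2 and 3.20 TPM in SC-β. The ePP libraries were at 1.71 and 0.952 TPM at passage 9 and 0.648 and 0.492 TPM at passage 21, and those of ePP-β at 0.704 and 0.195 TPM. All of them lay below both directly made libraries (differences -2.39 and -1.56). DMSO at 10.4 and 4.49 TPM and I-BET151 at 5.33 and 4.40 TPM overlapped each other, and DMSO also overlapped PP2.

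SNAI2, which marks migrating neural crest and many mesenchymal cells, did not follow SNAI1. It was near 0 in hPSC (0.246 TPM) and DE (0.289 TPM) and at 11.3 TPM in PP2. The ePPs held it at 12.3 and 13.0 TPM at passage 9 and at 16.2 and 16.7 TPM at passage 21, each above PP2 (mean difference 0.33, which did not pass 1). SC-β was at 25.5 TPM, against 4.42 and 3.46 TPM in ePP-β (difference -2.43). SNAI2 was thus at or above the PP2 level in the expanded progenitors and below the SC-β level in the β-like cells made from them. The 2 libraries of I-BET151 spread widely, at 13.4 and 42.1 TPM, around those of DMSO at 16.1 and 23.0 TPM.

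ZEB1 (chr10:31318495-31529814, plus strand) is a repressor of epithelial genes that is itself held down by the miR-200 microRNAs. It was the only member higher beyond 1 in both the ePPs and ePP-β than in their directly made counterparts. Its level was 0.0130 TPM in hPSC, 0.165 TPM in DE, 2.49 TPM in PP2 and 2.46 TPM in SC-β. The ePPs were at 10.8 and 10.4 TPM at passage 9 and 8.93 and 10.9 TPM at passage 21, and ePP-β at 13.9 and 15.3 TPM. The 6 libraries of batch 2 lay above both directly made libraries, and the ePP mean was 411% of PP2 and the ePP-β mean 595% of SC-β. In batch 3, DMSO was at 0.209 and 4.33 TPM and I-BET151 at 5.01 and 10.6 TPM, the upper of which fell within the range of the ePPs. The long noncoding RNA gene ZEB1-AS1 overlaps ZEB1 on the other strand, and the sources used here do not state whether the counting used strand. ZEB1-AS1 was at 9.96 TPM in hPSC, 16.8 TPM in PP2, 3.67 to 7.90 TPM in the ePPs and 13.9 and 10.8 TPM in ePP-β, an order unlike that of ZEB1. The antisense genes ZEB2-AS1 and TARID, which overlap ZEB2 and TCF21, stayed under 1 TPM in all 14 libraries.

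ZEB2 (chr2:144364364-144521057, minus strand), the relative of ZEB1 with roles in neural crest and neural development, was like ZEB1 lowest in hPSC (0.00678 TPM) but highest in the directly made cells. In DE it was at 0.241 TPM, within the range of ePP-β. It was at 7.09 TPM in PP2 and 7.45 TPM in SC-β. The ePPs were at 0.220 and 2.12 TPM at passage 9 and 2.74 and 0.558 TPM at passage 21, so each passage held a high and a low library, and the ePP-β values were 0.214 and 0.340 TPM. The differences were -1.90 from PP2 and -2.73 from SC-β. DMSO (1.59 and 1.89 TPM) and I-BET151 (1.66 and 2.01 TPM) lay inside the ePP range. The 2 ZEB genes therefore lay on opposite sides of the directly made cells in every one of the 6 expanded libraries.

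TCF21 (chr6:133889113-133895553, plus strand), a factor of the mesenchyme of visceral organs such as the lung, kidney and heart covering, had the most restricted pattern. It was at 14.8 TPM in PP2 and 32.7 TPM in SC-β. It was at 0.209 and 0.469 TPM in the passage 9 ePPs, 0.923 and 0.271 TPM at passage 21, 0.462 and 0.629 TPM in DMSO, 0.228 TPM and listed at 0 in I-BET151, 0.115 TPM in hPSC and listed at 0 in DE. In ePP-β it was listed at 0 in replicate 1 and was at 0.0279 TPM in replicate 2. The difference was -3.45 between ePP and PP2 and -5.05 between ePP-β and SC-β, the largest of the 10 genes in the latter comparison. PRRX1 (chr1:170662728-170739421, plus strand) was close to absent throughout. Its highest value was 2.08 TPM in DMSO replicate 2, no other library reached 1 TPM, and PP2 at 0.662 TPM lay above the 4 ePP libraries (0.0549 to 0.257 TPM) while SC-β at 0.0311 TPM did not lie above ePP-β (0.0710 and 0.0258 TPM).

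The receptor genes were likewise highest in the directly made cells. PDGFRA (chr4:54229280-54298245, plus strand) was at 20.2 TPM in PP2 and 10.1 TPM in SC-β, against 1.35 and 0.302 TPM at passage 9, 0.152 and 0.355 TPM at passage 21 and 0.632 and 0.313 TPM in ePP-β. The ePP mean was 2.67% of PP2 (difference -3.84) and the ePP-β mean 4.68% of SC-β (difference -2.92). PDGFRB (chr5:150113839-150155872, minus strand) was at 22.2 TPM in PP2 and 43.5 TPM in SC-β, against 3.68 and 4.35 TPM at passage 9, 6.74 and 4.04 TPM at passage 21 and 1.42 and 1.61 TPM in ePP-β. These are differences of -2.05 and -4.15. In batch 3 PDGFRA was at 2.28 and 2.74 TPM with DMSO and 3.53 and 3.71 TPM with I-BET151, and PDGFRB at 11.6 and 6.10 TPM with DMSO and 14.3 and 6.37 TPM with I-BET151. All 4 libraries were below PP2 and, except for PDGFRB in the second replicates, above every ePP library. DE held PDGFRA at 4.35 TPM and PDGFRB at only 0.277 TPM, and hPSC the reverse, PDGFRA at 0.955 TPM and PDGFRB at 3.30 TPM.

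The sequences just upstream of the start sites of TCF21, PDGFRA and PDGFRB, which were high together in PP2 and SC-β, are shown with that of ZEB1, which was not. Each holds the 250 bases before the RefSeq start (build GRCh38.p14), 5′ to 3′ on the gene's strand, with E-boxes (CANNTG, which reads the same on both strands) in capitals. The windows lie at chr6:133888863-133889112 for TCF21, chr4:54229043-54229292 for PDGFRA, chr5:150155846-150156095 for PDGFRB and chr10:31318167-31318416 for ZEB1. For PDGFRA and ZEB1 the table holds 2 and 7 windows, of which the first is shown.
TCF21: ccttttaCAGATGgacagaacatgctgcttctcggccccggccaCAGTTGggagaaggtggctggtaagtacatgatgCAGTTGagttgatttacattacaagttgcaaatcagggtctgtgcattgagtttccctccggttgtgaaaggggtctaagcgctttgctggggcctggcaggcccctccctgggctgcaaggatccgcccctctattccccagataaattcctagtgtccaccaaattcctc
PDGFRA: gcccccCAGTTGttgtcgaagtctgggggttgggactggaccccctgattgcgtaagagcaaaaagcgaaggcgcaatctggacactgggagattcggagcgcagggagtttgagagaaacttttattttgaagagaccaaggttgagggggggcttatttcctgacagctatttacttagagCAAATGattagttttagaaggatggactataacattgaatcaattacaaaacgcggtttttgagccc
PDGFRB: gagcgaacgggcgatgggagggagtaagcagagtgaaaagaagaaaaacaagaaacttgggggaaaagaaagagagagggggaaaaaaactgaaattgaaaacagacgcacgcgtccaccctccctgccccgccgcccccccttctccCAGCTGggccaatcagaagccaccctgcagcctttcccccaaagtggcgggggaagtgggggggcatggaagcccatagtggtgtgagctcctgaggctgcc
ZEB1: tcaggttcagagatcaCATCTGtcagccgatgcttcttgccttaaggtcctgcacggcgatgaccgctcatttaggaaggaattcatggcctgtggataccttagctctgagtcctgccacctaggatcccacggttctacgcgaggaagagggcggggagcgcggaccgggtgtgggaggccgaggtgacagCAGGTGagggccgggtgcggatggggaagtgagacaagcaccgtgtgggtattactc

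The TCF21 window shown held 3 E-boxes, those of PDGFRA and ZEB1 held 2 and that of PDGFRB held 1. Among 35116 such windows of 27305 genes, 61.8% held at least 1 E-box and 10.4% held 3 or more. The variant CAGGTG, or CACCTG on the other strand, is the form bound by the SNAI and ZEB factors. It is counted among the E-boxes above, was present in the ZEB1 window shown and in 17.5% of all windows, and was not found in the other 3 shown. Of the 7 ZEB1 windows, 2 held it. A match is a description of these letters and does not show binding. Of the 10 genes, 7 had a window in the RefSeq table, and TWIST1, SNAI1 and SNAI2 did not.

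The ligands and partners of these genes were followed as lists. Of the 4 PDGF ligand genes, PDGFB was at 10.9 TPM in PP2 and from listed at 0 to 0.0921 TPM in the ePPs, and PDGFA was at 23.1 TPM in PP2 against a mean of 10.4 TPM in the ePPs. PDGFC (17.0 against a mean of 16.7 TPM) and PDGFD (9.99 against 9.82 TPM) lay close together in PP2 and the ePPs. Of 13 partners and cofactors, 6 were lower and 1 higher beyond 1 in the ePPs, where 25.4% of all genes compared were lower and 7.98% higher. The E protein genes TCF4 (16.4 TPM in PP2, mean of 0.207 TPM in the ePPs) and TCF3 (346 and 61.2 TPM) and the corepressor gene CTBP1 (347 and 96.2 TPM) were among the 6. TCF4 stayed under 1 TPM in all 4 ePP libraries and entered only through PP2, where it was higher. Another E protein gene, TCF12, was at 42.2 TPM in PP2 and 25.1 to 38.6 TPM in the ePPs, and was not among the 6. E proteins are the dimer partners of TWIST1, TWIST2 and TCF21.

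The summed levels of other mesenchymal transcription factor genes and of matrix genes were highest in PP2 and SC-β as well. Of 22 other mesenchymal transcription factor genes, 15 reached 1 TPM in at least 1 library of the comparison. All 15 were lower beyond 1 in the ePPs than in PP2 (median -2.56), against 25.4% of all genes compared. However, all 15 reached 1 TPM in PP2, against 4 of the 22 in each ePP library. Most of them thus entered only through PP2, where they were higher, and their count adds no support beside that share. The 15 included HAND1 (136 TPM in PP2, listed at 0 in all 4 ePP libraries), NR2F1 (161 against a mean of 2.37 TPM), OSR1 (19.0 against 0.0881 TPM) and FOXF1 (15.7 against 0.0177 TPM). Of 19 matrix and cytoskeleton genes compared, 15 were lower, among them LUM (171 against 0.704 TPM), COL1A1 (310 against 10.6 TPM) and COL3A1 (779 against 27.9 TPM). Some of the 15, such as COL5A1 and THY1, stayed under 1 TPM in all 4 ePP libraries and entered only through PP2, where they were higher. These add no support beside the share of 25.4%. In the other direction, 1 gene was higher, against 7.98% of all genes compared. That gene was VIM, the mesenchymal intermediate filament, at 381 TPM in PP2 and 1351 to 1725 TPM in the ePPs.

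Markers of other cell types differed between the same libraries. All 10 endothelial markers reached 1 TPM in PP2, where they summed to 136 TPM, against 1.26 to 3.47 TPM in the ePPs, and CDH5, which encodes VE-cadherin, was at 22.3 TPM in PP2 and listed at 0 in all 4 ePP libraries. Smooth muscle and pericyte markers (10 genes) summed to 473 TPM in PP2 and 861 TPM in SC-β, against 511 TPM in hPSC, 148 to 161 TPM in the ePPs and 150 and 164 TPM in ePP-β. The list was mixed between PP2 and the ePPs. Of 8 genes compared, 4 were lower beyond 1 in the ePPs, with NOTCH3 (204 TPM in PP2) and TAGLN (153 TPM) carrying the PP2 sum, and RGS5 was higher (17.0 TPM in PP2, mean of 43.9 TPM in the ePPs). Mesothelial markers (7 genes) summed to 49.5 TPM in PP2 and 0.130 to 0.371 TPM in the ePPs, and neural crest and Schwann markers (9 genes) to 84.4 TPM in PP2, carried by NGFR at 81.2 TPM, and 1.32 to 3.11 TPM in the ePPs. In ePP-β, the mesothelial sum of 260 to 265 TPM exceeded the 85.5 TPM of SC-β and was carried by CALB2 (mean of 261 TPM). The endothelial sum was 19.4 and 6.97 TPM in ePP-β replicates 1 and 2, against 20.4 TPM in SC-β. It was carried by CLDN5, at 17.0 and 5.82 TPM in ePP-β and 10.9 TPM in SC-β. The neural crest sum was 119 TPM in SC-β and 39.6 and 46.0 TPM in ePP-β. The part of other cell types in the levels of the 10 genes was not tested.

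**Figure D3:**
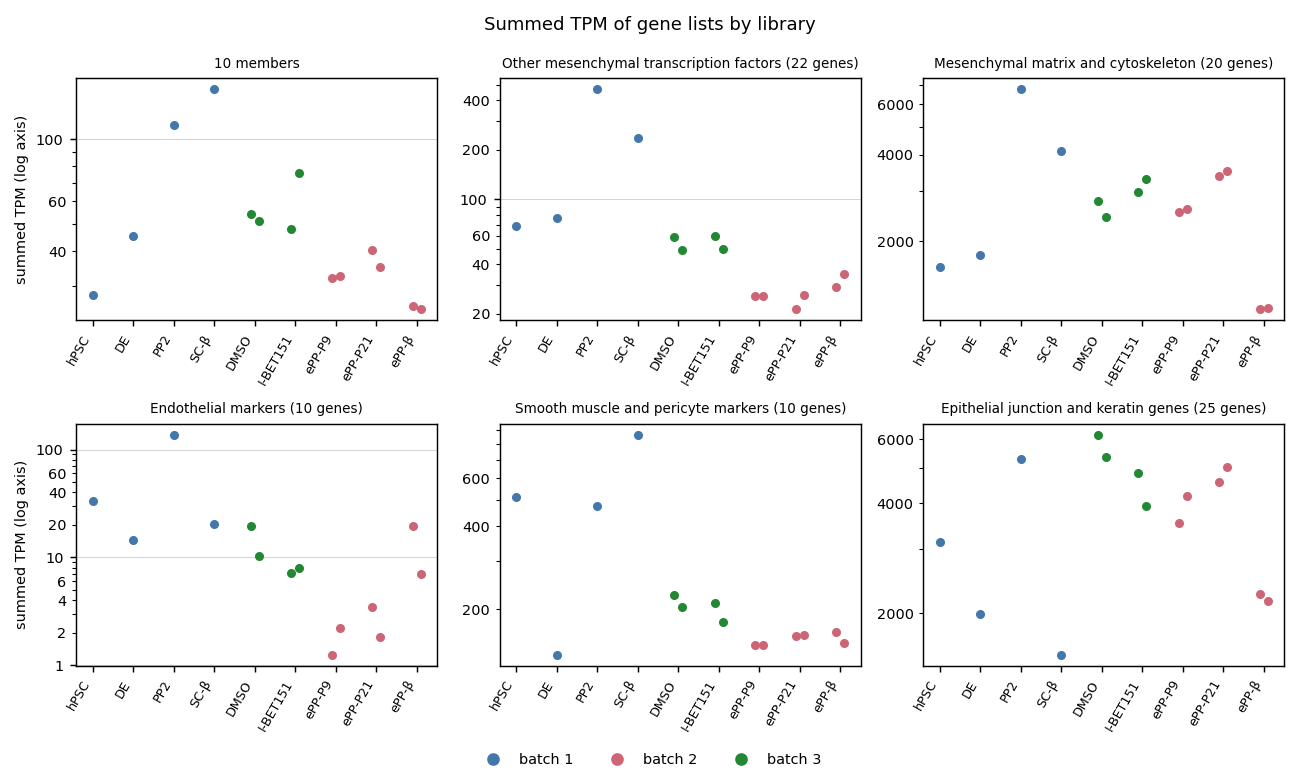
Summed TPM, on a log axis, of the 10 genes and of 5 lists of related genes in each of the 14 libraries, coloured by batch, with the 9 groups on the horizontal axis. PP2 and SC-β hold the highest sums of the 10 genes (112 and 150 TPM) and of the other mesenchymal transcription factors (467 and 236 TPM), whereas endothelial markers are high in PP2 (136 TPM) but not in SC-β (20.4 TPM).

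The change from ePP to ePP-β lay within batch 2 and could be tested. The limma fit on log2(TPM + 1) took the 18076 genes that reached 1 TPM in 2 or more of the 6 libraries. Genes were called where the Benjamini-Hochberg adjusted p over all of them was under 0.05 and the log2 fold change lay beyond 1. Of the 10 genes, 6 passed the filter. SNAI2, PDGFRB and TWIST2 were called lower and TWIST1 higher, where 9.86% of all genes tested were called lower and 17.9% higher (27.8% either way). TWIST1 and TWIST2 entered the test only through the group in which each was higher, so that only SNAI2 and PDGFRB can be read as calls beside these shares. Quantile normalization moved the split of all genes from 3237 higher and 1783 lower to 2592 higher and 2866 lower and kept the 4 calls.

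SNAI2 fell from between 12.3 and 16.7 TPM in the 4 ePP libraries to 4.42 and 3.46 TPM in ePP-β (log2 fold change -1.65, SE 0.14, limma adjusted p = 0.000198), and the call held without any 1 of the 6 libraries. PDGFRB fell from between 3.68 and 6.74 TPM to 1.42 and 1.61 TPM (log2 fold change -1.15, SE 0.22, limma adjusted p = 0.0055). Without ePP-P21 replicate 1 its log2 fold change was -0.998, just inside the threshold. TWIST1 rose from at most 0.975 TPM to 3.99 and 3.55 TPM (log2 fold change 1.59, SE 0.25, limma adjusted p = 0.00244). It entered the test only through the ePP-β libraries and was not tested when either of them was left out, so its call describes its values and adds no independent support. TWIST2 fell from between 0.652 and 2.73 TPM to 0.0561 and 0.0960 TPM (log2 fold change -1.08, SE 0.22, limma adjusted p = 0.00742), entered only through ePP-P21, was not tested without either library of that passage, and had an adjusted p of 0.0687 without ePP-β replicate 1 and 0.0577 without replicate 2 by the same limma fit.

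ZEB1 was higher in both ePP-β libraries than in all 4 ePP libraries. Its log2 fold change of 0.48 (SE 0.13, limma adjusted p = 0.0227) was below the size required for a call, and its adjusted p exceeded 0.05 without any 1 of 4 libraries (0.0564 and 0.0647 without either of ePP-P9, 0.0549 and 0.113 without either of ePP-β). ZEB2 (log2 fold change -0.77, SE 0.49, limma adjusted p = 0.224) overlapped between the groups. SNAI1, PRRX1, TCF21 and PDGFRA did not reach the filter, and of these TCF21 alone did not overlap, with both ePP-β values (listed at 0 and 0.0279 TPM) below the lowest ePP value of 0.209 TPM. Among the partner genes, those of the inhibitors ID1 (mean of 787 TPM in the ePPs and 31.1 TPM in ePP-β, log2 fold change -4.60), ID3 (-4.11), ID2 (-1.75) and ID4 (-1.48) were all called lower. ID proteins bind E proteins and keep them from DNA. Of 13 partner genes, 12 passed the filter, 5 were called lower and 0 higher. Of 4 PDGF ligand genes, PDGFC was called lower, from a mean of 16.7 TPM to 3.34 and 6.25 TPM (log2 fold change -1.65, limma adjusted p = 0.00181). Of 9 smooth muscle and pericyte markers that passed, 4 were called higher, CNN1, TAGLN, KCNJ8 and MCAM, and 3 lower, RGS5, CSPG4 and NOTCH3, and of 3 neural crest and Schwann markers that passed, all 3 were called higher. Some of these markers, CNN1 and S100B among them, entered the test only through ePP-β. The part of such cells in the rise of TWIST1 was not tested.

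Passage 21 was set against passage 9 in the same way, to ask whether the members shifted as the ePPs were expanded. Of the 10 genes, 5 passed the filter and limma called 0 of them, where 1.07% of 15822 genes were called higher and 0.0569% lower (1.13% either way), a split of 169 and 9 that became 10 and 3 under quantile normalization. At an unadjusted p under 0.05 there was 1, SNAI2, whose 2 libraries at passage 21 (16.2 and 16.7 TPM) lay above those at passage 9 (12.3 and 13.0 TPM; log2 fold change 0.35, SE 0.13, limma adjusted p = 0.189). Under median centring and under quantile normalization its log2 fold change was 0.15 (limma adjusted p = 0.415 and 0.442). TWIST2 was also higher in both passage 21 libraries (log2 fold change 0.74, SE 0.31, limma adjusted p = 0.234). SNAI1, below the filter, was lower in both. For ZEB1 the log2 fold change was -0.10 (SE 0.16), for PDGFRB 0.32 (SE 0.27) and for ZEB2 0.31 (SE 0.60), and their libraries overlapped between the passages.

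The DMSO and I-BET151 libraries were compared to ask what 7 days of BET inhibition did to the members in progenitors. Of the 10 genes, 8 passed the filter and limma called 0 of them, with 0 also at an unadjusted p under 0.05, where 0.204% of 16687 genes were called lower and 0.00599% higher (0.21% either way). That background was unstable, with 0 genes called lower at a pseudocount of 0.1, 135 under quantile normalization and 100 to 751 when 1 library was left out. ZEB1 had the largest log2 fold change of the 8, 1.72 (SE 0.79, limma adjusted p = 0.392), and its I-BET151 values of 5.01 and 10.6 TPM lay above the DMSO values of 0.209 and 4.33 TPM. Without DMSO replicate 2 the log2 fold change was 2.79 and without DMSO replicate 1 it was 0.65, so its size turned on the 2 unlike DMSO libraries. In both groups ZEB1 was higher in replicate 2 than in replicate 1. With the replicate number as a block, ZEB1 was called higher (limma adjusted p = 0.0311). The labels do not say that these numbers pair the libraries. TWIST1 lay below DMSO in both I-BET151 libraries (log2 fold change -0.65, SE 0.41, limma adjusted p = 0.518) and PDGFRA above it in both (0.40, SE 0.29, limma adjusted p = 0.58). TWIST2, SNAI1, SNAI2, ZEB2 and PDGFRB overlapped. PRRX1 and TCF21 did not pass the filter.

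In the lists around them, 0 of 10 other mesenchymal transcription factor genes and 0 of 25 epithelial junction and keratin genes were called with I-BET151, while 2 of 16 matrix genes, LOX (51.2 and 38.7 TPM with DMSO, 1.82 and 2.62 TPM with I-BET151) and LUM (16.2 and 14.2 TPM, 0.477 and 0.670 TPM), were called lower (limma adjusted p = 0.048 for each). LUM entered the test only through DMSO, and neither call held with a pseudocount of 0.1 or with no filter, where 0 genes were called. The calls of this comparison also changed when the replicate number was taken as a block. The median log2 fold change of the epithelial list was -1.26, against 0.16 over all genes tested. CDH1 was at 121 and 118 TPM with DMSO and 25.9 and 37.0 TPM with I-BET151, and ESRP1, an epithelial splicing factor, at 38.5 and 32.3 TPM and at 8.41 and 7.28 TPM. Both genes were lower in each I-BET151 library than in each DMSO library, as ZEB1 was higher, and none of the 3 was called in the fit without a block.

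ZEB1 was set beside the epithelial genes across all libraries because it is known as a repressor of several of them. Of 25 epithelial junction and keratin genes, 17 had a negative Pearson r with ZEB1 over the 14 libraries. ESRP1 (-0.87), RAB25 (-0.86) and ESRP2 (-0.85) lay at the negative end. For comparison, 7 of the 25 genes had a negative r with TWIST1 and 6 with SNAI1. The libraries share batches, and the 6 of batch 2 sit together at the high end of ZEB1. Within them, 9 of 25 genes were negative in batch 1 (4 libraries), 12 in batch 2 (6 libraries) and 21 in batch 3 (4 libraries). ESRP1 was negative in each (-0.50, -0.54 and -0.79), whereas CDH1 was positive in batches 1 and 2 (0.34 and 0.84) and negative in batch 3 (-0.67), and CLDN7 was positive in batch 2 (0.87). The pooled relation therefore did not hold within every batch for most of these genes. By level, 17 of 24 epithelial genes compared were lower beyond 1 in the ePPs than in PP2 and 0 were higher. Over all genes compared, 25.4% were lower and 7.98% higher. GRHL2 and OVOL1 stayed under 1 TPM in all 4 ePP libraries and entered only through PP2, where they were higher. CDH1 was at 156 TPM in PP2 and a mean of 12.2 TPM in the ePPs, and ESRP1 at 63.2 TPM and 0.528 to 2.40 TPM. The part of ZEB1 in these levels was not tested. The ePP-β libraries held CDH1 at 26.1 and 25.2 TPM, against 62.8 TPM in SC-β.

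**Figure D4:**
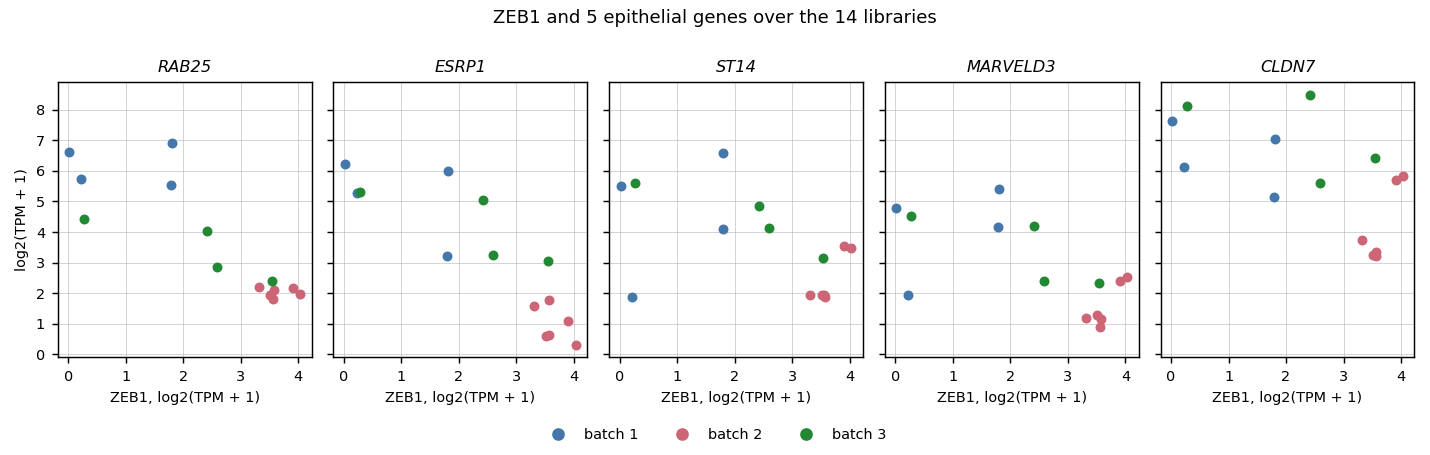
Level of 5 epithelial genes (vertical axes, log2(TPM + 1)) against that of ZEB1 (horizontal axes, log2(TPM + 1)) in the 14 libraries, each point 1 library coloured by batch. The genes are those of the epithelial list with the largest ePP difference from PP2. RAB25 and ESRP1 are low in all 6 libraries of batch 2, where ZEB1 is high, and CLDN7 is higher in the 2 ePP-β libraries (mean of 53.7 TPM) than in the ePPs (mean of 9.58 TPM) although ZEB1 is higher there too.

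Along the direct path, from single libraries of batch 1 and so without a test, the members came up mainly between DE and PP2. Of the 9 genes compared, 7 were higher beyond 1 in PP2 than in DE and 2, TWIST2 and SNAI1, were lower, against backgrounds of 27.2% and 9.83% of 18578 genes. SNAI2, ZEB1, ZEB2, TCF21 and PDGFRB were under 1 TPM in DE and entered only through PP2, where they were higher. Only TWIST1, PDGFRA, TWIST2 and SNAI1 can therefore be read beside these shares. The median over the 9, most of which entered only through PP2, was 1.99 and adds no support. Over all genes it was 0.38. Median centring moved the split of all genes from 5053 higher and 1826 lower to 2749 higher and 3379 lower and the median to -0.10, and left the members' 7 and 2 in place. PDGFRB (difference 4.18), TCF21 (3.98) and SNAI2 (3.25) led. From hPSC to DE, SNAI1 (1.60) and PDGFRA (1.45) were higher and PDGFRB (-1.75) was lower beyond 1 among 5 genes compared, against 10.8% and 16.1% of 17807 genes. PDGFRA was under 1 TPM in hPSC and PDGFRB in DE, so each entered only through the library in which it was higher.

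From PP2 to SC-β, SNAI2 (1.11) and TCF21 (1.09) were higher and SNAI1 (-1.24) lower beyond 1 among the 9 genes compared, against 12.7% and 22.1% of 18894 genes. PDGFRB (0.94) and PDGFRA (-0.94) moved in opposite directions by less than 1, and TWIST1 (-0.04), ZEB1 (-0.01) and ZEB2 (0.06) differed little. Median centring turned the split of all genes from 2401 higher and 4182 lower to 3444 higher and 2324 lower and left 4 members higher beyond 1 (TWIST2 and PDGFRB besides SNAI2 and TCF21) and 0 lower, with SNAI1 at -0.87. Of the 10 smooth muscle and pericyte markers, 5 were higher beyond 1 in SC-β, such as ACTA2 (478 TPM against 35.2 TPM) and DES (36.8 TPM against 0.895 TPM), and 2 were lower, RGS5 (2.18 TPM against 17.0 TPM) and NOTCH3 (36.2 TPM against 204 TPM), whereas the endothelial gene CDH5 was at 0.0348 TPM in SC-β. TWIST1 thus lay at nearly 1 level in PP2 and SC-β and rose from ePP to ePP-β, while SNAI2 and PDGFRB lay higher in SC-β than in PP2 and fell from ePP to ePP-β. The difference between the steps was not tested, since PP2 and SC-β had 1 library each.

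For each member that reached 5 TPM in at least 1 library, SNAI2 apart, the 3 protein-coding genes with the most similar profile were found by Pearson r of log2(TPM + 1) over the 14 libraries, among 13622 genes. The closest to TCF21 were ANXA8, FOXF1 and AHSG (each 0.98), of which FOXF1 is a factor of visceral mesenchyme. ZEB2 was followed by PITX1 (0.89), NR2F1 (0.87) and IL17D (0.87). PDGFRB was followed by LRRC32 (0.95), TRMT61A (0.92) and FJX1 (0.91), and PDGFRA by CSRNP1 (0.92), KLF2 (0.90) and NAT14 (0.90). The genes nearest to SNAI1 were VAMP5, TGFB1 and LSM7 (0.94, 0.94 and 0.93), to TWIST2 PROB1, TRMT1 and MAFG (0.92, 0.92 and 0.91), to ZEB1 CLUAP1, STMP1 and HSPA13 (0.95, 0.95 and 0.94), and to TWIST1 WDR86 and KDF1 (0.95 and 0.94) with 1 gene that the annotation gives no symbol. Among the members, the closest pairs were ZEB2 and PDGFRB (0.86), ZEB2 and TCF21 (0.83) and TWIST1 and PDGFRA (0.83), whereas ZEB1 ran against SNAI1 (-0.85) and TWIST2 (-0.85). These values describe libraries that share batches and depend on few of them, and carry no p-value.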

How the data were processed

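RNA of MEL1 cells was sequenced in paired ends on a HiSeq instrument from NEBNext Ultra libraries. The authors aligned the reads with HISAT2 2.1.0 to GRCh38 (hg38) and computed TPM per Ensembl gene identifier with StringTie, and the deposited values are these TPM, with no scaling between libraries. The annotation release and strand use are not given in the sources used here. Depth is unknown, so values carry no counting interval. Of 60624 identifiers, 60370 matched GENCODE release 44, which supplied symbols and positions. Values were transformed as log2(TPM + 1). Tests were two-sided limma 3.58.1 fits in R 4.3.3 (intensity trend, Benjamini-Hochberg over all genes tested) within 1 batch, on genes reaching 1 TPM in 2 or more libraries. For ePP-β the ePP level was the mean of both passage means. Comparisons with a single library have no test and keep genes reaching 1 TPM in any library. SE is that of the limma contrast. A count test cannot take TPM and was not run. The code was tested on simulated data with known changes.

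The members and lists were chosen with earlier results of these data known. All 10 members are described. The genes most like SNAI2 are not reported here. From a list, up to 5 genes per comparison were eligible to be named, those with the largest difference among genes with at least 5 TPM in a library of the comparison. VIM, CDH1, ESRP1 under I-BET151, GRHL2, OVOL1, TCF12 and the antisense genes were named outside this rule after their values were seen. Stage markers were named as checks of the labels. The alternatives were a pseudocount of 0.1, no filter or a filter of 5 TPM, median centring, quantile normalization, the replicate number as a block, and leaving out each replicate.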

Additional observations from a re-analysis of the deposited data

Results flagged for a closer look

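Among the 4 ePP libraries, PDGFRA was at 1.35 TPM in ePP-P9 replicate 1 and at 0.152 to 0.355 TPM in the other 3, a gap of 0.830 of the whole range, just over the limit set for 4 values (Dixon's test at the 95% level). The other 9 genes did not pass this limit, and chance passes about 1 group in 20.

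For 6 of the 10 genes, both ePP-β libraries lay above or below all 4 ePP libraries while SC-β differed from PP2 in the opposite direction. How many of all genes meet this rule was not counted, so the 6 cannot be read as a result about the members. For TCF21, all ePP and ePP-β values were under 1 TPM. The change from ePP to ePP-β exceeded that from PP2 to SC-β, on the log2(TPM + 1) scale, by 1.63 for TWIST1 and 0.49 for ZEB1, and the difference of the changes was -1.72 for TWIST2, -2.76 for SNAI2, -1.60 for TCF21 and -2.09 for PDGFRB. For TWIST1 (-0.04) and ZEB1 (-0.01) the direct step was close to 0, so the opposite sign rests on a very small difference. These differences were not tested, because PP2 and SC-β had 1 library each.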

How the results depend on the processing

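Precision rests on 2 libraries per tested group and on unknown depth. Over the member values without a test, the 31 that lay beyond 1 kept their sign under all 139 alternatives and stayed beyond 1 under 138. Many of the 31 entered only through the group in which they were higher, as given above. For these the kept sign adds no support. No member value past a threshold reversed. For I-BET151 against DMSO (1 gene called higher and 34 lower), a pseudocount of 0.1 and no filter gave 0 and 0, median centring 119 lower, quantile normalization 3 and 135, and leaving out 1 library 7 to 283 higher and 100 to 751 lower, with 0 to 1 member higher. For ePP-P21 against ePP-P9 (169 and 9), no filter and median centring gave 0 and 0, quantile normalization 10 and 3, a filter of 5 TPM 4 lower, and leaving out 1 library 0 to 453 and 0 to 25. For ePP-β against ePP (3237 and 1783), a filter of 5 TPM gave 2058 higher and left 2 members to test, 0 called higher and 1 lower; quantile normalization gave 2866 lower; leaving out 1 library gave 1623 to 3273 higher, with 0 to 1 member higher and 1 to 3 lower. For ePP against PP2, a pseudocount of 0.1 gave 2390 higher, median centring 3223 and 3241, and quantile normalization 3158 and 3209. For PP2 against DE these last 2 settings gave 2749 and 3379, and 2974 and 3103. For SC-β against PP2, median centring gave 2324 lower, with 4 members higher and 0 lower. The cause of these shifts was not tested.

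With the replicate number as a replicate block, I-BET151 against DMSO gave 828 genes higher and 1466 lower and called 1 member, ZEB1 (limma adjusted p = 0.0311), and ePP-P21 against ePP-P9 gave 64 and 2. The differences between replicates 2 and 1 correlated across genes at 0.675 between DMSO and I-BET151 and at -0.009, 0.032 and 0.042 among the 3 groups of batch 2. The labels do not say that a number marks a shared culture, and with 2 pairs the numbers were not taken to pair the libraries. Under the block with I-BET151, 14 of 25 epithelial genes were called lower and 0 higher, 6 of 16 matrix genes lower and 2 higher, and 2 of 10 other mesenchymal transcription factor genes lower and 1 higher. These counts stand beside 1466 lower and 828 higher among all 16687 genes tested under the same block. The block changed no other member call.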
